A study of Mus musculus with 12 samples.

Results

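Integrins are the receptors that fasten cells to the extracellular matrix, and this account follows their genes and those of the adaptor proteins at their cytoplasmic side in primary mouse aortic smooth muscle cells. Members are the genes whose name in the expression table starts with Itga or Itgb, 30 in all, and 10 genes of the focal adhesion core taken by name (Tln1, Tln2, Ilk, Parva, Lims1, Fermt2, Pxn, Ptk2, Zyx and Vcl). That makes 40 of the 29462 genes in the table. Of the 30 genes taken by the start of their name, 26 encode receptor subunits and 4 do not: Itgb1bp1, Itgb1bp2, Itgb3bp and Itgbl1.

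Wild-type cells (WT) were from C57BL/6J animals. The other genotype (KO) lacks cystathionine gamma-lyase (CSE, gene Cth), an enzyme that makes hydrogen sulfide from cysteine, in the whole body. Cells of both genotypes had received the pressor hormone angiotensin II at 1 uM for 24 h. No untreated cells were analysed here, so KO is compared with WT in the presence of the hormone, with 6 libraries each. Neither the age of the mice nor the number of cultures or animals behind the 6 libraries is in the labels, so p-values measure only how far these libraries vary, and that variation may be technical.

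An integrin is a pair of 1 alpha and 1 beta subunit, each crossing the membrane. The pair sets the ligand: some bind collagens, some laminins of the basement membrane, and some the RGD peptide motif of fibronectin, vitronectin and latent TGF-beta, while a further class is used by leukocytes. Talin and kindlin bind the beta tail and switch the receptor on, vinculin ties talin to actin, the complex of ILK, PINCH and parvin links kindlin to actin, and paxillin, focal adhesion kinase and zyxin carry the signal and sense tension. In vascular smooth muscle these contacts transmit wall stress to the contractile cytoskeleton.

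Some facts of the libraries bear on all results. Cth, the targeted gene, was at 0 to 0.08 FPKM in WT and 0 to 0.02 in KO (FPKM, fragment counts scaled by gene length and library size; mean 0.0233 ± 0.0288 SD and 0.005 ± 0.00837, n = 6 each; exact permutation p = 0.165, two-sided, adjusted 0.541), so it does not check the genotype labels. KO replicates 5 and 6 stood apart from KO replicates 1 to 4 on the second principal component, which held 14.2% of the variance. Differences of several members that they move are given with and without them. The defining contractile gene Myh11 was at 0 to 0.03 FPKM in all libraries and Acta2 at 111 to 140.4 in WT, 75.28 to 85.09 in KO replicates 1 to 4, against 141.13 and 145.52 in KO replicates 5 and 6, and the integrin Itga8, known from vascular smooth muscle, was listed at 0 in all but 2 KO libraries, where it was at 0.01. Of 8 contractile markers, 2 reached 1 FPKM in 6 libraries. Deposited FPKM summed to 255538 in KO replicate 6 and to between 274174 and 281432 in every other library. The depth in reads is unknown.

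Members were tested with limma on log2(FPKM + 1) if 6 or more of the 12 libraries reached 1 FPKM, and p-values were adjusted by the Benjamini-Hochberg method across the 11831 genes that met this threshold. Among the 40 members 20 passed that threshold. In KO, 10 of the 20 were called higher and 6 lower at an adjusted p of 0.05, and 4 were not called; over all genes tested 63.5% were called, 32.6% higher and 30.9% lower. With quantile normalization 7 members were higher and 7 lower. The median log2 difference of the 20 was 0.13, against 0.01 over all genes tested. For 10 of the 20 the KO values lay wholly outside the WT values, 5 above and 5 below, as they did for 46.4% of all genes tested (23.8% above and 22.5% below). Itgb7 passed the threshold through KO alone, with no WT library at 1 FPKM, and Itgb4 through WT with 2 KO libraries, so their place among the tested genes already depends on a difference. In KO replicates 1 to 4 alone, 12 members were higher and 7 lower, where 77.1% of all genes were called.

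**Figure D1:**
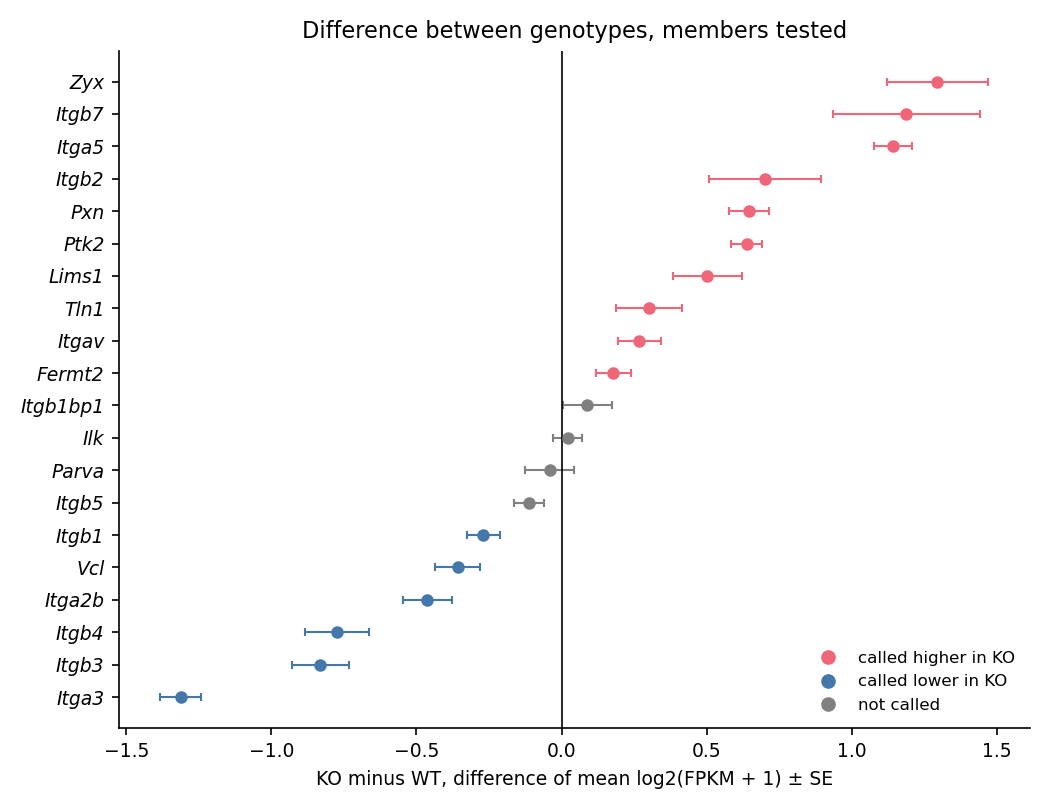
Difference of mean log2(FPKM + 1), KO minus WT, for the 20 members tested, with bars of 1 standard error from limma (6 libraries per genotype). Zyx, Itgb7 and Itga5 lie above 1 and Itga3 lies below -1, with the other members between them.

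Of the 4 subunits that bind laminin, Itga3 and Itgb4 fell while Itga6 and Itga7, at low levels, rose; the fall of Itga3 was the largest of any subunit tested. Itga3 encodes the alpha3 subunit, which pairs with beta1 to bind laminins of the basement membrane; its gene lies on chromosome 11 from 95044474 to 95076801, minus strand (GRCm38, GENCODE M21). Its WT values ran from 27.64 to 29.54 FPKM with a median of 28.1, and its KO values from 8.47 to 11.82 with a median of 11.0. The KO libraries all lay far below the WT libraries, and the groups did not overlap. The mean fell 2.61-fold, from 28.2 ± 0.683 to 10.8 ± 1.23 FPKM (log2 difference -1.31 ± 0.070 SE, limma adjusted p = 2.6e-09).

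Itgb4, the beta4 subunit that joins alpha6 in the hemidesmosomes of epithelia, was also lower in KO. The WT libraries held 1.94 to 2.09 FPKM, KO replicates 1 to 4 held 0.96 to 1.05, and KO replicates 5 and 6 held 0.35 and 0.37. All 6 KO libraries lay under all WT libraries (log2 difference -0.77 ± 0.112 SE, limma adjusted p = 4.4e-05, and a difference of -0.59 in KO replicates 1 to 4 alone). Its only partner went the other way at a low level: Itga6, the alpha6 subunit, was at 0.19 to 0.37 FPKM in WT and at 0.98 to 1.45 in KO. Itga7, an alpha subunit of muscle that binds laminin, was at 0.12 to 0.20 and 0.47 to 0.89. Markers of epithelial and mesothelial cells moved with these genes: 8 markers, of which 5 reached 1 FPKM in 6 libraries, summed to 146.04 to 154.78 FPKM in WT and 44.55 to 67.87 in KO, with Cdh1 at 65 ± 1.69 and 0.86 ± 0.314 FPKM and no marker at 0 in every library. The lower sum rests on Cdh1, Krt19 and Msln. Krt18, Upk3b and Wt1 ran the other way, Krt18 at 0 to 0.1 FPKM in WT and 0.12 to 0.3 in KO, and Upk3b and Wt1 at 0.448 ± 0.0828 and 0.117 ± 0.0151 FPKM in WT and 2.1 ± 0.346 and 1.51 ± 0.146 in KO. In bulk RNA fewer cells of a type and less RNA per cell cannot be told apart, and the part of such cells in the laminin receptor values was not tested.

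The alpha5 subunit moved against alpha3. Itga5 pairs with beta1 as the main fibronectin receptor, and its gene lies on chromosome 15 from 103344286 to 103366763, minus strand. The WT libraries held 15.08 to 17.05 FPKM with a median of 15.7, and the KO libraries 30.20 to 41.04 with a median of 36.6. Each KO value was above every WT value, also in KO replicates 5 and 6, at 30.20 and 41.04. The mean rose 2.29-fold, from 15.9 ± 0.71 to 36.4 ± 3.49 FPKM (log2 difference 1.14 ± 0.066 SE, limma adjusted p = 6.1e-09). Read as a ratio within each library, Itga3 stood at 1.71 to 1.83 times Itga5 in WT and at 0.265 to 0.323 times in KO, so the more abundant of the pair changed from alpha3 to alpha5.

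The sequences before the start sites of these genes, from RefSeq (GRCm38.p6, strand of the gene, 5′ to 3′), are shown because the pair holds the largest fall and the largest rise among alpha subunits tested. Capitals mark matches to a GC box, GGGCGG on either strand; each stretch holds 2.
Itga3, chr11:95076802-95076964: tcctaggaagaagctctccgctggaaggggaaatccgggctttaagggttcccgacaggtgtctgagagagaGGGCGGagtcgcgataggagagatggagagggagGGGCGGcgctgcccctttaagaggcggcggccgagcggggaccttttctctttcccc
Itga5, chr15:103366792-103367041: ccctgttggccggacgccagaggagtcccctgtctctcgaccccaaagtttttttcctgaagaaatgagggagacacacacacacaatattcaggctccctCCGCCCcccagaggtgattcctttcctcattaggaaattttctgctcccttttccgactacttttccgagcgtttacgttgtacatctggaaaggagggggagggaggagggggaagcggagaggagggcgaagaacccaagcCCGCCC
A GC box was found in 32.7% of all 32851 promoter windows of 250 bases, and in those of 12 of the 27 members with an entry in the table. The stretch of Itga3 is shorter, 163 bases, because bases that GENCODE places inside the gene were left out; its full window also matched CCGGAAG, the motif of ETS factors.

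The other subunits that bind RGD did not move as a block: of 5 tested, 2 were called higher and 2 lower. Itgav, the alphav subunit shared by several RGD receptors, was at 17.85 to 19.56 FPKM in WT and 17.80 to 24.98 in KO. KO replicates 1 to 5 were above all WT libraries and KO replicate 6, at 17.80, was below them. The mean rose 1.22-fold to 22.8 ± 2.69 FPKM (log2 difference 0.27 ± 0.075 SE, limma adjusted p = 0.007). The call was lost with quantile normalization (adjusted p = 0.083) and an exact rank-sum test (0.094), and the adjusted p over 24 alternatives ran from 5.7e-07 to 0.094.

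Itgb3, a beta subunit that pairs with alphav as the vitronectin receptor, fell. Its WT libraries held 8.82 to 9.80 FPKM, KO replicates 1 to 4 held 5.16 to 5.91, and KO replicates 5 and 6 held 3.70 and 3.82. The KO libraries all lay below the WT libraries, and the mean went from 9.53 ± 0.358 to 4.99 ± 0.989 FPKM (log2 difference -0.83 ± 0.099 SE, limma adjusted p = 7.4e-06). The difference was -0.67 in KO replicates 1 to 4 alone. Itga2b, the alpha partner of beta3 on platelets, fell from 1.96 ± 0.121 to 1.16 ± 0.275 FPKM (log2 difference -0.46 ± 0.084 SE, limma adjusted p = 0.00032). Its KO replicates 1 to 4 held 1.27 to 1.37 FPKM and KO replicates 5 and 6 held 0.65 and 1.06; in KO replicates 1 to 4 alone the difference was -0.35. Of the 5 platelet markers, Itga2b among them, Pf4 and Gp9 were under 0.1 FPKM in every library, and Ppbp and Gp1ba were at most 0.18 and 0.23 FPKM.

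Itgb5, the other abundant beta partner of alphav, was at 46.89 to 51.35 FPKM in WT and 41.56 to 50.63 in KO, and the groups overlapped. Its log2 difference of -0.11 ± 0.051 SE was not called (limma adjusted p = 0.074), but it was called lower without KO replicate 6 (-0.14, adjusted p = 0.0038) and in KO replicates 1 to 4 alone (-0.15, adjusted p = 0.00075); over 24 alternatives the adjusted p ran from 0.00017 to 0.22. Beside the fall of Itgb3, the ratio of Itgb5 to Itgb3 within a library went from 4.95 to 5.32 in WT to 7.42 to 13.3 in KO. The RGD subunits Itgb6, of epithelia, and Itgb8, which activates latent TGF-beta, stayed at or under 0.20 FPKM in every library. Itgb8 was at 0.02 to 0.04 FPKM in WT, 0.10 to 0.20 in KO replicates 1 to 4, against 0.03 and 0.04 in KO replicates 5 and 6; it was not called over all libraries (exact permutation adjusted p = 0.207) and was called with KO replicates 1 to 4 alone (0.0365; without single libraries 0.0641 to 0.266).

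Itgb1, the beta subunit shared by most matrix receptors, was the most abundant member by mean FPKM in both genotypes. Its gene lies on chromosome 8 from 128685654 to 128733200, plus strand. WT libraries held 158.28 to 166.52 FPKM with a median of 161, and KO libraries 112.98 to 143.20 with a median of 135.8. The groups did not overlap, the lowest being KO replicate 6, and the mean fell 1.2-fold from 161.2 ± 2.92 to 133.9 ± 10.9 FPKM (log2 difference -0.27 ± 0.057 SE, limma adjusted p = 0.0011). The alpha subunits that can pair with beta1 summed to 62.75 to 67.57 FPKM in WT and 65.51 to 80.21 in KO, under the level of Itgb1 in each library.

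**Figure D2:**
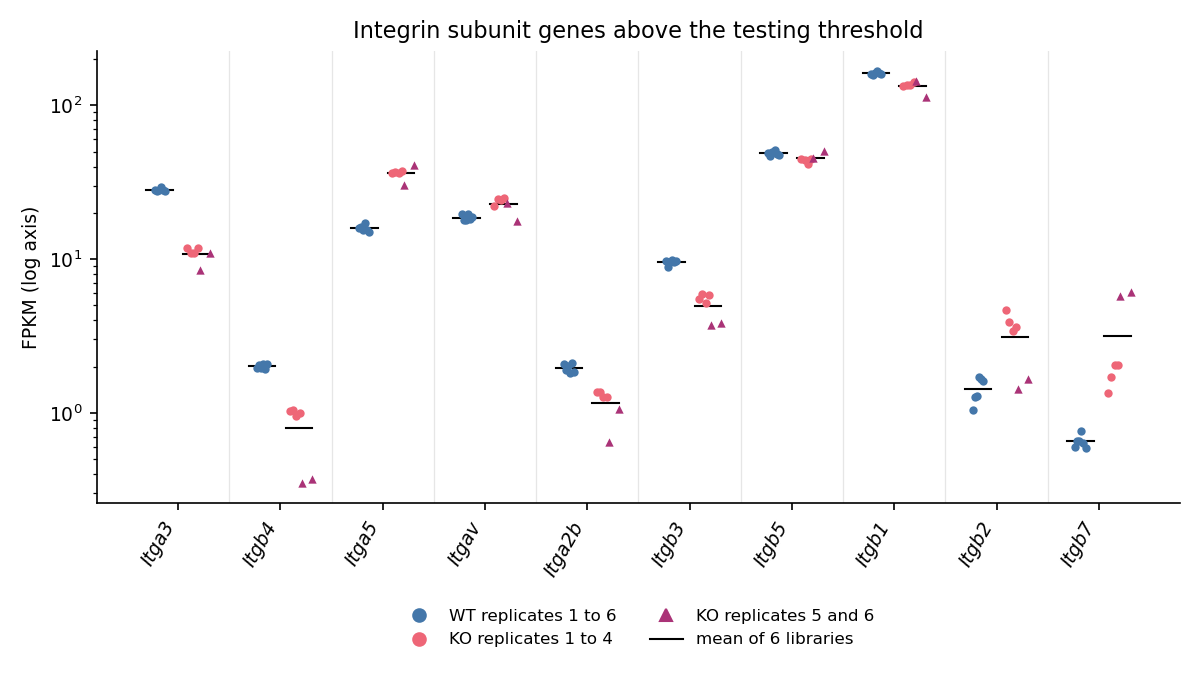
FPKM (log axis) of the 10 integrin subunit genes tested, in each of the 6 WT and 6 KO libraries; triangles are KO replicates 5 and 6 and lines the mean of 6. Itga3 and Itga5 swap order between genotypes. The triangles lie below all KO circles for Itgb2, Itga3, Itgb4, Itga2b and Itgb3, and above them for Itgb7 and Itgb5.

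Grouped by ligand, the summed FPKM of these alpha subunits held a smaller laminin share and a larger RGD share in KO. Subunits that bind laminin (Itga3, Itga6 and Itga7) made up 44.7% ± 0.513 of the sum in WT and 17.0% ± 1.03 in KO (SD, n = 6), while those that bind RGD (Itga5, Itga8 and Itgav) made up 53.9% ± 0.499 and 78.9% ± 1.43. The share of laminin subunits lay between 44.1% and 45.5% in WT and between 15.4% and 18.5% in KO, KO replicates 5 and 6 included. Subunits that bind collagen made up 1.31% ± 0.12 and 3.89% ± 0.661 of the sum. These shares restate the values of the single genes, mostly of Itga3, Itga5 and Itgav, and carry no test.

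**Figure D3:**
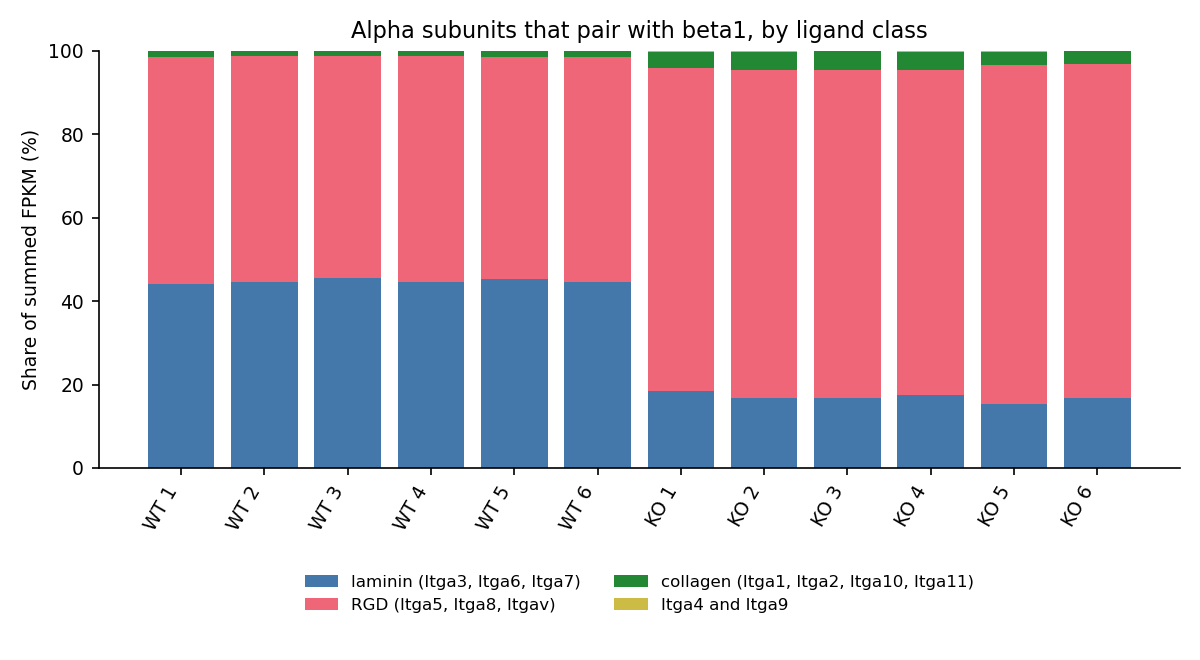
Share, in percent, of the summed FPKM of the alpha subunits that pair with beta1, by ligand class, for each of the 12 libraries. The laminin share is 44.1 to 45.5% in the WT libraries and 15.4 to 18.5% in the KO libraries.

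Below the testing threshold lay 20 members, compared by an exact permutation test of mean FPKM over every assignment of the 12 libraries to 2 groups of 6, two-sided, with p-values adjusted over the 17229 genes below the threshold that were above 0 in some library. Of the 20, 8 were called, all higher in KO: Itga1, Itga2, Itga11, Itga6, Itga7, Itga9, Tln2 and Itgbl1. Among all genes below the threshold 11.0% were called, 7.42% higher and 3.60% lower, but most of these genes are lower still, with a median mean of 0.0292 FPKM. The smallest p that the test allows is 0.00216, and its adjusted value was 0.0224. Itga2, Itga6, Itga7 and Tln2 stayed called whichever of the 12 libraries was left out. Itga1, Itga9, Itga11 and Itgbl1 lost the call whichever WT library was left out, with adjusted p up to 0.0616, and kept it whichever KO library was left out. With groups of unequal size the test can count a reversed assignment as equally extreme although no values overlap. This was so for Itga1, Itga9 and Itgbl1, whose KO values all lay above all WT values. Their lost call therefore does not show that they rest on single WT libraries.

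The collagen receptors belong to this low group. Itga1, an alpha subunit of smooth muscle that binds basement membrane collagen, was at 0.20 to 0.29 FPKM in WT, 1.04 to 1.26 in KO replicates 1 to 4, against 0.55 and 0.65 in KO replicates 5 and 6. Itga2, which prefers fibrillar collagen, was at 0.13 to 0.25 in WT and 0.80 to 1.19 in KO. Itga11, the fibroblast receptor for fibrillar collagen, was at 0.04 to 0.22 in WT and 0.22 to 0.90 in KO, with its lowest KO value, 0.22 in replicate 5, equal to its highest WT value. Fibroblast markers went in both directions. Dpt was at 0 to 0.17 FPKM in WT, 18.59 to 19.18 in KO replicates 1 to 4, against 9.46 and 7.82 in KO replicates 5 and 6. Pdgfra averaged 1.08 ± 0.236 in WT and 10.4 ± 3.81 in KO. Ly6a fell, from 179.61 to 198.71 in WT to 47.65 to 151.42 in KO. Dcn was at 62.25 to 79.26 in WT and 131.51 to 151.34 in KO replicates 1 to 4. In KO replicates 5 and 6 Dcn was at 26.69 and 22.08. Col1a1 was at 473.07 to 502.53 in WT and 364.14 to 738.65 in KO. The 7 markers of the list, of which Lum and Pi16 were under 0.1 FPKM in every library and 5 reached 1 FPKM in 6, summed to 730.8 to 769.57 FPKM in WT, 984.27 to 1041.35 in KO replicates 1 to 4, against 462.96 and 645.44 in KO replicates 5 and 6. The part of fibroblasts in the values of these receptors was not tested. For Itga1 and Itga2 the groups did not overlap, and the means were 3.66- and 5.2-fold higher in KO. Itga10, known from cartilage, was at 0.23 to 0.33 and 0.20 to 0.39 FPKM and was not called (exact permutation adjusted p = 0.41).

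Itga9, which binds tenascin and osteopontin, was listed at 0 in 5 WT libraries and at 0.01 in the other, and at 0.04 to 0.14 FPKM in KO. Itga4, the fibronectin and VCAM1 receptor subunit, stayed at 0.02 to 0.07 FPKM in both genotypes. Itgbl1, a secreted protein with integrin-like repeats, was at 0.04 to 0.08 in WT, 0.79 to 0.98 in KO replicates 1 to 4, against 0.22 and 0.32 in KO replicates 5 and 6. Itgb3bp, a centromere protein despite its name, was at 0.78 to 1.21 and 0.51 to 0.87 FPKM (exact permutation p = 0.0065, adjusted 0.0533, not called). Itgb1bp2, a muscle protein that binds beta1, was at 0 to 0.16 FPKM throughout.

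**Figure D4:**
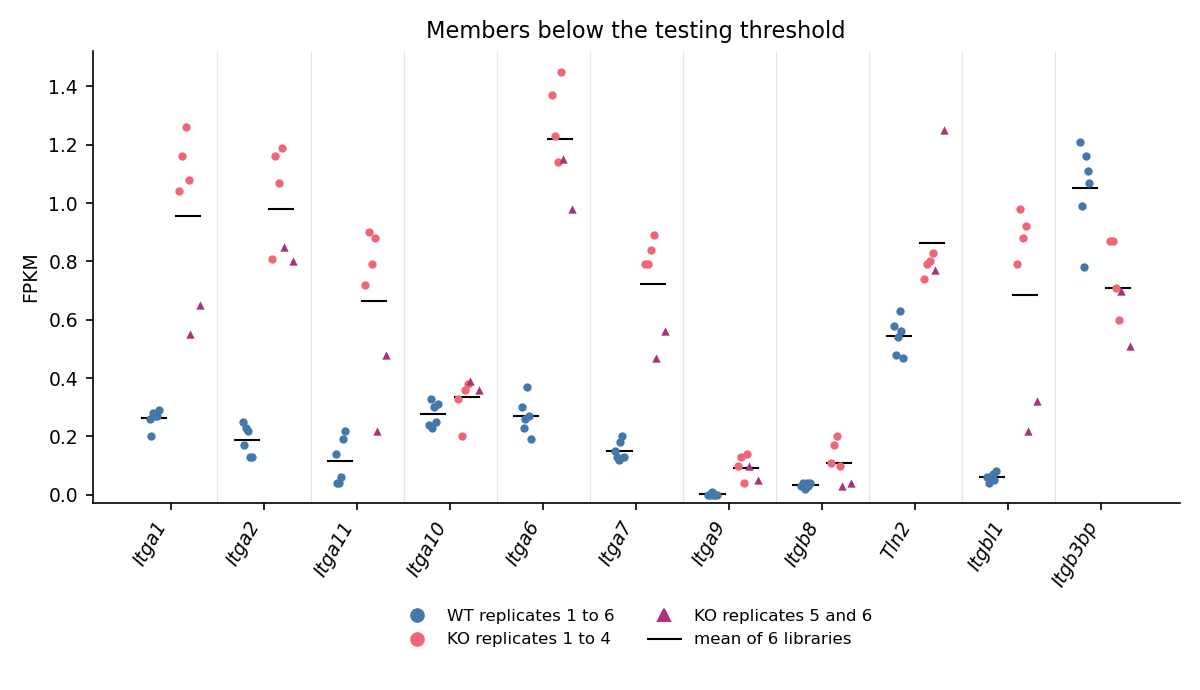
FPKM (linear axis) of 11 of the 20 members below the testing threshold in each library; triangles are KO replicates 5 and 6 and lines the mean of 6. Itga1, Itga2, Itga6, Itga7, Itga9, Tln2 and Itgbl1 have all KO values above all WT values, and for Itgb8 the triangles sit at 0.03 and 0.04, within the WT range.

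The beta subunits of leukocytes, Itgb2 and Itgb7, passed the threshold, without alpha partners at a like level. Itgb2, the common beta subunit of leukocytes, was at 1.04 to 1.71 FPKM in WT, 3.43 to 4.64 in KO replicates 1 to 4, against 1.43 and 1.65, inside the WT range, in KO replicates 5 and 6. Its log2 difference was 0.70 ± 0.193 SE (limma adjusted p = 0.0062); in KO replicates 1 to 4 alone it was 1.02 (adjusted p = 5.2e-07), and with an exact rank-sum test the call was lost (adjusted p = 0.0506, the highest of 23 alternatives, the lowest being 9.7e-08). The 4 alpha subunits it pairs with, Itgal, Itgam, Itgax and Itgad, summed to at most 0.08 FPKM in any library.

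Itgb7, which joins alpha4 or alphaE on lymphocytes, had the opposite pattern within KO. It was at 0.59 to 0.76 FPKM in WT, 1.34 to 2.06 in KO replicates 1 to 4, against 5.78 and 6.08 in KO replicates 5 and 6. Every KO value was above every WT value (log2 difference 1.19 ± 0.253 SE, limma adjusted p = 0.0011). In KO replicates 1 to 4 alone the difference was 0.75 (adjusted p = 1.2e-06); over 23 alternatives the adjusted p ran from 4.9e-07 to 0.0047. Its partners Itga4 and Itgae together summed to 0.09 to 0.25 FPKM in WT and 0.06 to 0.11 in KO. Of 6 leukocyte markers, the pan-leukocyte gene Ptprc was at 0 to 0.04 FPKM and Adgre1 at 0 to 0.02 in all libraries, while the summed level of the list was 2.2 to 3.17 in WT and 8.53 to 14.84 in KO, mostly from Cd68 and Csf1r. The lowest KO sums, 8.53 and 10.46, were those of KO replicates 5 and 6, and the part of leukocytes in the values of Itgb2 and Itgb7 was not tested.

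In the focal adhesion core 6 of 9 tested genes rose, Vcl fell, and Ilk and Parva were not called, against 32.6% higher and 30.9% lower over all genes tested. With quantile normalization Tln1 and Fermt2 lost the call. All 3 of the signalling and tension-sensing members, Pxn, Ptk2 and Zyx, rose. Zyx encodes zyxin, which moves to strained actin fibres, and lies on chromosome 6 from 42349630 to 42360213, plus strand. WT libraries held 26.70 to 28.80 FPKM, KO replicates 1 to 4 held 55.62 to 57.80, and KO replicates 5 and 6 held 87.73 and 125.40. All KO libraries were above all WT libraries; the mean rose 2.64-fold to 73.5 ± 28.2 FPKM with all 6 (log2 difference 1.3 ± 0.175 SE, limma adjusted p = 2.4e-05) and 2.04-fold in KO replicates 1 to 4 (log2 difference 1.01, adjusted p = 6.2e-12, the lowest of 24 alternatives, the highest being 0.0047).

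Ptk2, focal adhesion kinase, went from 6.53 to 6.90 FPKM in WT to 10.03 to 12.33 in KO. Pxn, the scaffold paxillin to which this kinase binds, went from 5.99 to 6.86 FPKM to 8.70 to 11.77. For both genes the groups did not overlap and the means rose 1.64- and 1.66-fold (log2 differences 0.64 ± 0.054 and 0.65 ± 0.069 SE, limma adjusted p = 2.9e-07 and 2.6e-06). KO replicates 5 and 6 were above the other KO libraries for Ptk2 and below them for Pxn.

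Vinculin and the activators of the receptor moved by less. Vcl, on chromosome 14 from 20929398 to 21033676, plus strand, was at 27.36 to 32.72 FPKM in WT, 19.24 to 23.76 in KO replicates 1 to 4, against 25.54 and 27.53 in KO replicates 5 and 6. KO replicate 6 alone reached the WT range, and the mean fell 1.29-fold to 23.7 ± 2.8 FPKM (log2 difference -0.36 ± 0.077 SE, limma adjusted p = 0.0012). Zyx and Vcl thus moved apart: Zyx was at 0.844 to 1.01 times Vcl in the WT libraries and at 2.4 to 4.56 times in the KO libraries. Exons of Vcl share 2090 bases with Ap3m1 on the opposite strand, whose mean was 15.7 FPKM for WT and 14.1 for KO. The part of this overlap in the values of Vcl was not tested.

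Tln1, the ubiquitous talin that links beta tails to actin, was at 37.59 to 40.19 FPKM in WT and at 39.30 to 46.02 in KO replicates 1 to 5, with 72.04 in KO replicate 6. KO replicate 1, at 39.30, lay inside the WT range. It was called higher (log2 difference 0.30 ± 0.113 SE, limma adjusted p = 0.032), and without KO replicate 6 the difference was 0.19 (adjusted p = 0.0028). The call was lost in 9 of 24 alternatives, among them median-ratio scaling (adjusted p = 0.054) and quantile normalization (0.22); the adjusted p ran from 0.00021 to 0.22. Exons of Tln1 share 360 bases with Creb3 on the opposite strand, whose mean was 10.4 FPKM for WT and 21.1 for KO, and the sources used here do not say whether reads were counted by strand. Tln2, the talin of muscle and brain, was at 0.47 to 0.63 FPKM in WT and 0.74 to 1.25 in KO.

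Fermt2, kindlin-2, which binds beta tails beside talin, was at 13.29 to 15.64 FPKM in WT, 14.65 to 15.69 in KO replicates 1 to 4, against 18.09 and 17.13 in KO replicates 5 and 6. The groups overlapped, and it was called higher by 0.18 ± 0.06 SE on the log2 scale (limma adjusted p = 0.019). With quantile normalization it was not called (adjusted p = 0.2, the highest of 24 alternatives, the lowest being 0.0018).

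**Figure D5:**
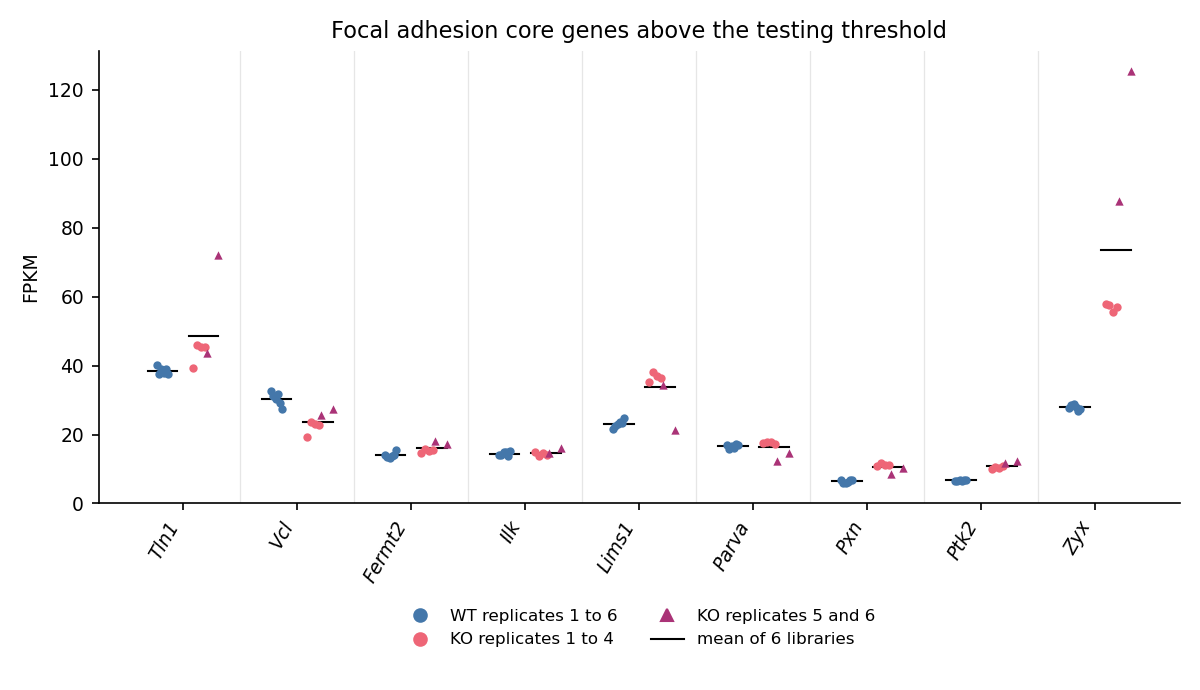
FPKM (linear axis) of the 9 focal adhesion core genes tested, in each of the 6 WT and 6 KO libraries; triangles are KO replicates 5 and 6 and lines the mean of 6. Zyx shows the widest gap, with KO values of 55.62 to 125.40 over WT values of 26.70 to 28.80, and KO replicate 6 is the high value of Tln1 and the low value of Lims1.

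Vcl and Fermt2 are shown with the bases before their start sites. Among core members with a promoter entry, only their promoters hold a CArG box, the motif of serum response factor. That factor is known to drive cytoskeletal genes. The core members Tln2, Parva, Pxn and Ptk2 had no entry and were not searched. Capitals mark the CArG box and GC boxes, and in Vcl also CATTCC on the reverse strand, the motif of TEAD factors.
Vcl, chr14:20929148-20929397, plus strand: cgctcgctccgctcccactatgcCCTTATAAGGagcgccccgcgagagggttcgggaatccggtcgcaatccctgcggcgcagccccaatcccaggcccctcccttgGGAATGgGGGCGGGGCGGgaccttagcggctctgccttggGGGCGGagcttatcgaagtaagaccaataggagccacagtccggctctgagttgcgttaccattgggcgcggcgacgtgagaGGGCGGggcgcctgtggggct
Fermt2, chr14:45530119-45530315, minus strand: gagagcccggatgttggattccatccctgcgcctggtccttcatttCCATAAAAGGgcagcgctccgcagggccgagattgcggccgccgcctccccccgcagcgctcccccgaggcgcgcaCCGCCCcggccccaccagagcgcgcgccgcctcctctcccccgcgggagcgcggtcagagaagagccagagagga
The CArG box of Vcl begins 227 bases and that of Fermt2 204 bases before the RefSeq start, and 2 of the 4 GC boxes of Vcl overlap each other. The stretch of Fermt2 is shorter, 197 bases, because bases that GENCODE places inside the gene were left out. It therefore ends before the RefSeq start, and the full window of Fermt2 holds further GC boxes. A CArG box stood in 1.47% of all 32851 windows of 250 bases and in those of 3 of the 27 members with an entry, the third being Itgb6. CATTCC stood in 12.6% of windows and in those of 3 members. The AP-1 motif TGANTCA stood in 6.75% of windows and in those of Zyx and Itgax among members, CCGGAAG of ETS factors in 6.91% and 3 members, and TATAAA in 12.4% and Lims1 alone. Both strands were searched; a match describes letters, and no binding was measured. Within KO, Vcl and Fermt2 were both higher in replicates 5 and 6 than in replicates 1 to 4, as were Zyx, Ptk2, Itgb5 and Itgb7.

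The complex of ILK, PINCH and parvin did not change as a unit. Lims1, the LIM protein PINCH1, was at 21.50 to 24.81 FPKM in WT, 34.48 to 38.01 in KO replicates 1 to 5, and 21.31 in KO replicate 6, below all WT libraries. It was called higher (log2 difference 0.50 ± 0.118 SE, limma adjusted p = 0.0021), and the call was lost with an exact rank-sum test (adjusted p = 0.094, the highest of 24 alternatives, the lowest being 1.1e-09). The difference of Lims1 was 0.64 in KO replicates 1 to 4 alone. Ilk, the pseudokinase at the centre of the complex, was at 13.90 to 15.28 FPKM in WT and 13.77 to 16.13 in KO, a log2 difference of 0.02 ± 0.05 SE (limma adjusted p = 0.73). Exons of Ilk share 2106 bases with Taf10 on the opposite strand, whose mean was 13.7 FPKM for WT and 20.0 for KO. The part of this overlap in the values of Ilk was not tested.

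Parva, alpha-parvin, which carries the complex to actin, was at 15.88 to 17.33 FPKM in WT, 17.39 to 17.94 in KO replicates 1 to 4, against 12.20 and 14.75 in KO replicates 5 and 6. Its log2 difference over all libraries was -0.04 ± 0.085 SE (limma adjusted p = 0.69), and in KO replicates 1 to 4 alone it was 0.08 and called (adjusted p = 0.028, the lowest of 24 alternatives, the highest being 0.87). KO replicates 1 to 4 were thus above, and KO replicates 5 and 6 below, all WT libraries. Itgb1bp1, which binds the beta1 tail and holds the receptor inactive, was at 6.67 to 7.82 FPKM in WT and 8.52 to 9.03 in KO replicates 1 to 4. KO replicate 5, at 6.18, was below all WT libraries, and KO replicate 6, at 7.02, lay inside the WT range. Over all libraries Itgb1bp1 differed by 0.09 ± 0.083 SE on the log2 scale (limma adjusted p = 0.37). In KO replicates 1 to 4 alone it was called higher by 0.21 (adjusted p = 0.00097; over 24 alternatives 0.00061 to 0.59).

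KO replicates 5 and 6 lay on the same side of all of KO replicates 1 to 4 in 15 of the 20 members tested, above in 6 and below in 9. The share over all genes tested was not computed. These 2 libraries also stood apart on the second principal component of all genes tested, so the count cannot be read as particular to the members. Their values fell further from WT than those of KO replicates 1 to 4 for Itga3, Itgb3, Itgb4, Itga2b, Itgb7, Fermt2, Ptk2 and Zyx. They lay nearer to the WT mean for Itgb2, Lims1, Pxn and Vcl. Itgb5, Parva and Itgb1bp1, which were not called, make up the 15. For Itga5, Itgav, Itgb1, Tln1 and Ilk, at least 1 of the pair lay within the range of KO replicates 1 to 4 or the pair lay on opposite sides of it.

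Around the core, a wider list of 76 focal adhesion genes that are no members gave 66 tested, of which 28 rose and 16 fell, 66.7% called against 63.5% of all genes, with a median log2 difference of 0.13 (0.01 over all genes). With quantile normalization 19 rose and 18 fell. The shares in the groups of this list are to be read against 32.6% higher and 30.9% lower over all genes. Among 13 tested activators and inhibitors of integrins 7 rose and 1 fell, Kank3, named after its values were seen. Apbb1ip, the adaptor RIAM that brings talin to the membrane, averaged 0.00333 ± 0.00516 FPKM in WT and 4.2 ± 0.396 in KO, passing the threshold through KO alone (log2 difference 2.37 ± 0.056 SE, limma adjusted p = 8.4e-13). Dab2, an endocytic adaptor that takes up integrins, rose 3.9-fold to 32.4 ± 3.91 FPKM, and Sharpin, which holds integrins inactive, rose 1.43-fold to 9.79 ± 0.692.

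Among 14 adaptors and scaffolds tested 4 rose and 6 fell. Sorbs3, vinexin, which binds vinculin, fell 3.06-fold to 8.76 ± 1.57 FPKM, Cav1, caveolin-1, 2.4-fold to 52.5 ± 8.73, and Crkl, which couples phosphorylated scaffolds to small GTPases, 1.45-fold to 9.23 ± 1.03. Of 15 kinases and phosphatases 6 rose and 2 fell. Fyn, a Src family kinase, passed the threshold through KO alone, from 0.155 ± 0.0568 to 3.02 ± 0.425 FPKM, Pak1 rose 1.67-fold to 6.52 ± 0.375, and the receptor phosphatase Ptprf fell 4.59-fold to 2.66 ± 0.77, with 2.97 to 3.33 FPKM in KO replicates 1 to 4, against 1.51 to 1.87 in KO replicates 5 and 6. Of 24 actin-linking and LIM proteins 11 rose and 7 fell; Pdlim7 rose 2.68-fold to 12.4 ± 1.22 FPKM, Tns3, a tensin that binds beta tails, 1.85-fold to 48.3 ± 3.1, and Palld, palladin, fell 1.78-fold to 3.66 ± 0.292. The limma adjusted p of these genes lay between 8.4e-13 and 1.9e-05. In the KEGG annotation that the deposited table carries, 166 genes of focal adhesion other than the members gave 120 tested, 40 of them called higher and 38 lower, 65% in all against 63.5% of all genes.

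The ligands moved in both directions: of 47 in the list, 35 were tested, 16 rose and 12 fell (80% called against 63.5% of all genes, median log2 difference 0.29 against 0.01). The counts in the groups of ligands are to be read against 32.6% higher and 30.9% lower over all genes. Some ligands counted as risen averaged under 1 FPKM in WT, so their place among the tested genes already depends on a difference. Beside the collagen receptors, 5 of 10 collagen chains rose and 2 fell; Col4a1 and Col4a2, the basement membrane collagen chains, rose 3.39- and 4.22-fold to 54.4 ± 10.0 and 38.8 ± 6.88 FPKM, and Col5a2 rose 2.21-fold to 80.2 ± 10.5. Beside the laminin receptors, 3 of 6 laminin chains tested fell, 1 rose and 2 were not called. Of 4 laminin chains below the threshold, 3 were called higher in KO by the exact permutation test, so the laminins did not fall as a group. Lama5, the alpha5 chain that the alpha3 receptor binds, fell 2.1-fold from 39.4 ± 1.14 to 18.8 ± 4.12 FPKM, and Lamb2 1.9-fold to 16.7 ± 5.24. Lamb2 was at 18.65 to 20.79 FPKM in KO replicates 1 to 4, against 7.94 to 12.7 in KO replicates 5 and 6, and its log2 difference was -0.95 over all libraries and -0.64 in KO replicates 1 to 4 alone. Among 14 RGD and related ligands 8 rose and 4 fell. Nid1, which ties laminin to collagen, rose 5.21-fold to 75.9 ± 5.98 FPKM, Tnc rose 8.18-fold to 72.4 ± 9.56, and Tgfb3, whose latent form RGD receptors bind, fell 3.34-fold to 17.1 ± 1.49.

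Fn1, fibronectin, the ligand of the alpha5 receptor, was chosen for mention after its values were seen: it fell from 1113 to 367.1 FPKM on average while Itga5 rose (log2 difference -1.64 ± 0.148 SE, limma adjusted p = 5.3e-07). Of 5 cell surface counter-receptors tested, 2 rose and 3 fell, against 32.6% higher and 30.9% lower over all genes. Cdh1, the ligand of alphaE beta7, fell 75.6-fold, Icam1, the ligand of beta2 integrins, passed the threshold through KO alone, from 0.608 ± 0.0733 to 5.9 ± 1.33 FPKM (6.45 to 7.28 in KO replicates 1 to 4, against 4.12 to 4.32 in KO replicates 5 and 6), and Jam3 rose 2.21-fold to 7.42 ± 1.41. The limma adjusted p of the ligands named by rule lay between 1.2e-13 and 0.00078.

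The authors' deposited table marked 16 of the 40 members as significant, against 15.0% of all 29462 genes, and 12 of the 16 were higher in KO and 4 in WT. The mark does not follow the q-value alone. Ptk2, Pxn and Itgb3 had a q-value of 0 and log2 ratios, WT over KO, of -0.72, -0.73 and 0.93, and were not marked. Calls made here set no minimum change, so the counts are not alike. Only 6 of the 16 passed the threshold used here, and each was called with the same direction. Among those below the threshold the mark falls on Itgad, with a ratio of 99.24 of WT over KO in the authors' deposited table, although its FPKM was at most 0.02 in WT and listed at 0 in every KO library. Itgad and the likewise marked Itgb8 and Itgae were not called here (exact permutation adjusted p = 0.263, 0.207 and 0.129). Itga3 had a ratio of 2.61, Itga5 one of 0.44 and Zyx one of 0.38 in the authors' deposited table, each with a q-value of 0.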

How the data were processed

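RNA of 12 libraries, 6 WT and 6 KO by the genotype in the labels, was measured as FPKM, which the authors deposited to 2 decimals for 29462 genes. FPKM depends on gene model length and on all other genes in a library, and a gene's row sums its transcript models (more than 1 in 34 of 40 members), so isoforms cannot be told apart. The deposited table also holds the authors' ratio of mean FPKM (WT over KO) with the log2 of this ratio and the p-value and q-value of a test that the sources used here do not name. Tools listed, with no role, in the submitters' processing notes are HISAT2 2.0.4, StringTie 1.3.4d, cutadapt 1.9, edgeR and DESeq2, and the build mm9. Positions are GRCm38 (GENCODE M21), matched by gene ID for all 40 members; the table itself has no coordinates.

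Genes reaching 1 FPKM in 6 or more libraries were tested with limma 3.58.1 (R 4.3.3) on log2(FPKM + 1), with a variance trend, no covariate and Benjamini-Hochberg adjustment over all genes tested, two-sided, at 0.05; folds are ratios of mean FPKM, and the log2 scale understates changes of low genes. The rest were compared by the exact permutation test. Both were tested on simulated data. Named genes are all members, Cth, the cell type markers and up to 3 called genes with the smallest p in each group of the other lists; 1 ligand gene that this rule names is not reported here. Of 40 members 27 matched RefSeq's promoter table (GRCm38.p6) by symbol. Alternatives covered pseudocount, filter, scaling, variance model, library weights, a rank-sum test, the replicate block and each library left out; KO replicates 1 to 4 only was added after seeing the data. The members and lists were chosen with earlier results of these data known.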

Additional observations from a re-analysis of the deposited data

Results flagged for a closer look

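In 76 groups of 6 libraries with any spread, 12 values stood apart from the other 5 of their genotype by more of the group's range than Dixon's 95% critical value; chance flags about 1 group in 20 of this kind. KO replicate 6 held 4 of them: Itgb1 at 112.98 FPKM, Lims1 at 21.31, Tln1 at 72.04 and Tln2 at 1.25. KO replicate 5 was the low value of Itga3, at 8.47 FPKM. In WT, Itgb3 was low in replicate 2 at 8.82 FPKM, Itga3 was high in replicate 4 at 29.54, Fermt2 was high in replicate 6 at 15.64, and Itga1 was low in replicate 2 at 0.2. Itga10 was low in KO replicate 2 at 0.2 FPKM. Itga9 and Itgax were each above 0 in WT replicate 3 alone, at 0.01 and 0.02 FPKM, next to the smallest step the table records.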

How the results depend on the processing

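Without a filter on low values the 20 low members enter the test. Of all 40 members 18 were then called higher in KO and 8 lower. Over all genes 10031 of 29060 were called in that setting, the added genes having a median mean of 0.0292 FPKM. With a minimum of 5 FPKM the genes called in KO against WT were 4775 of 7244. Parva changed sign with library weights, to 0.0782 on the log2 scale (adjusted p = 0.048), and in KO replicates 1 to 4 alone, to 0.0824 (adjusted p = 0.028); the cause was not tested. Leaving out 1 library at a time gave 4 to 8 called members below the threshold, 9 to 10 higher and 6 to 7 lower members, and 7121 to 8105 called genes. Of 476 single values of members under alternatives, 454 kept direction and side of the threshold, 14 lost the call, 6 gained it and 2 reversed; all 572 of the other named genes kept theirs. Scaling moved the median difference of all genes to between -0.04 and 0.03 on the log2 scale. With the replicate number as a block, 9 members were called higher and 6 lower (6959 genes called in KO against WT in all), Tln1 losing its call (adjusted p = 0.052). Same-numbered libraries correlated at -0.273 to -0.0582 in their deviations from the group means and no KO library correlated best with its own number. These correlations showed no pairing by number. They cannot exclude a pairing, because the split of KO replicates 5 and 6 from KO replicates 1 to 4 enters the same deviations. Unknown depth limits the members under about 0.1 FPKM most.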
